A study of Sus scrofa with 12 samples.

Results

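Ribosomal protein genes encode the proteins that, together with ribosomal RNA, form the small and the large subunit of the ribosome in the cytosol. Members were chosen by symbol from the deposited table of coding genes, as RPL or RPS with a number, RPS4X or RPS4Y, RPLP0 to RPLP2 and RPSA, and include the paralogs RPL10L and RPS27L. The rule found 90 of 21674 rows. Of these, 83 were annotated genes and 7 were rows that the authors had assembled and named after a ribosomal protein, and together they carried 82 distinct symbols. RPL39L and RPS4Y1 had no row. The study compared, at a younger and an older age, testes of pig breeds that reach sexual maturity at different ages. Testis RNA of 12 boars was sequenced after removal of ribosomal RNA, with 3 libraries in each group. Group Ha was Hezuo (HZ) boars aged 30 days, Hb was HZ boars aged 120 days, La was Landrace (LC) boars aged 30 days and Lb was LC boars aged 120 days, and the tissue was testis throughout. Per the study's methods, the testes came from castration of 3 animals in each group.

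Ribosomal protein messages are among the most abundant in growing cells, and signalling through mTOR adjusts their translation together with that of other parts of the protein-making machinery. In male germ cells the X chromosome falls silent during meiosis, and autosomal copies of X-linked genes, such as RPL10L for RPL10 and RPL39L for RPL39, are expressed there. Some paralogs, such as RPL3L of muscle, can take the place of their parent protein in the ribosome.

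The libraries held between 17165519 (Hb3) and 23758931 (Ha1) estimated coding counts. Levels of 1 gene between libraries are given in counts-per-million units (CPM), with TMM scaling over 12 libraries, and levels between genes as fragments scaled for gene length and library size (FPKM), as deposited. A fold change is the 120-day over the 30-day group, or LC over HZ, and was tested with edgeR's quasi-likelihood test over all coding genes with Benjamini-Hochberg adjustment. A gene was called where its adjusted p was under 0.05 and its log2 fold change was above 1 or under -1, and counts at the adjusted p alone are given beside that. By role, the annotated members were 43 rows of the large subunit, 31 of the small subunit, 3 of the stalk and 6 paralogs. RPL11 (chromosome 6, 81523510 to 81526925, build Sscrofa11.1) and a second RPL18 row (chromosome 1, 84378453 to 84379052) were listed at 0 in every library. Whether reads of RPL11 or of the second RPL18 row were assigned elsewhere was not tested, so their values of 0 were not taken as their expression. Elsewhere a count of 0 allows up to 3 counts, which is 0.115 CPM in Ha1 and 0.198 CPM in Hb3. Counts were whole in every library for 60 members with counts, and 28 members, among them RPL10, RPL39, RPS4X, RPL36A and RPLP0, had counts that were not whole. How reads shared between copies of a gene were divided is not known for those rows.

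By mean FPKM over the 12 libraries, RPLP0 stood highest among the members at 1979 FPKM, followed by RPS26 at 1101 FPKM and RPS12 at 1071 FPKM. RPLP0 encodes the base of the stalk, RPS26 sits near the exit of the messenger RNA and RPS12 belongs to the head of the small subunit. Lowest among members with any count were the assembled RPL31 row at 0.466 FPKM, RPL3L at 0.573 FPKM and the assembled RPS15A row at 0.982 FPKM. The members' summed share of a library's coding counts, in percent, was 3.48, 3.46 and 3.97 in Ha, 2.08, 2.80 and 2.39 in Hb, 5.01, 5.08 and 4.39 in La and 2.66, 2.92 and 2.97 in Lb. The share was 3.64% ± 0.287 (SD, n = 3) in Ha, 2.42% ± 0.362 in Hb, 4.83% ± 0.376 in La and 2.85% ± 0.165 in Lb. Each 30-day library lay above each 120-day library of its breed, and each La library lay above each Ha library, while Hb2 lay inside the range of Lb. The 95% Wilson interval of a library's share was at most 0.02 percentage points wide, which covers counting error only. As a share of summed FPKM, the means were 11.9% ± 0.825 in Ha, 7.61% ± 1.25 in Hb, 15.2% ± 0.920 in La and 8.82% ± 0.492 in Lb. In bulk tissue, fewer cells of a type and less RNA per cell cannot be told apart.

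**Figure D1:**
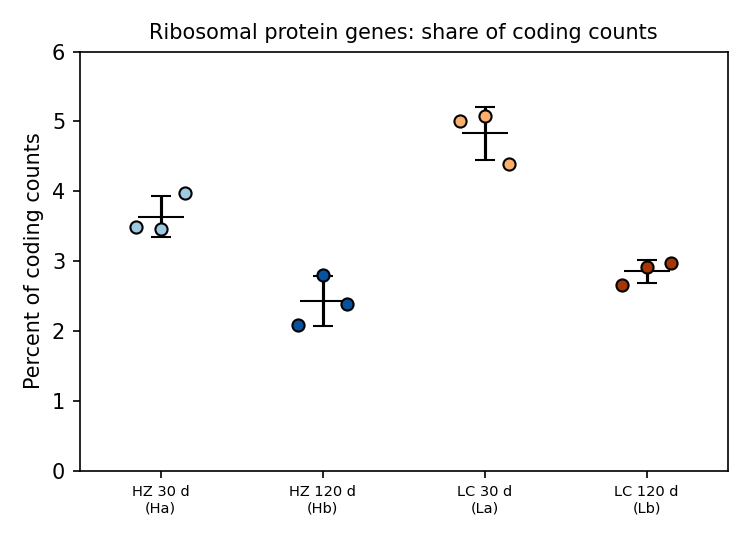
Share of coding counts (percent) that fell on the 90 members in each of the 12 libraries, with the group mean and SD (n = 3) as bars. The 30-day libraries sit between 3.46% and 5.08%, above the 120-day libraries, which sit between 2.08% and 2.97%.

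With age in HZ, 86 members passed the low-count filter. Of these, 7 were called higher, against 28.2% of all genes tested, and 5 were called lower, against 23.2%. Lower calls numbered 17 under library size, against 30.5% of all genes, 19 under the upper quartile, against 30.8%, and 38 on log2(FPKM + 1), against 23.2%. At the adjusted p alone under TMM, 15 members were higher, against 35.9% of all genes, and 42 were lower, against 33.0%. Most of these changes were under the fold threshold, with a median log2 fold change of -0.42 and a middle range (quartiles) of -0.66 to 0.07 among the members and a median of -0.02 over all genes. Without the 7 assembled rows, 3 members were called higher and 5 lower. Single libraries moved the counts, with 25 members lower at the adjusted p alone without Ha3, 26 without Hb3, and 12 called lower without Hb2. Within Hb, Hb2 was the highest library for 56 of the 81 annotated members with counts, and within Ha, Ha3 was the highest for 66 of 81.

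With age in LC, 86 members passed the filter. Among them, 7 were called higher, against 27.5% of all genes, and 14 were called lower, against 20.1%. Counting by the adjusted p alone, 10 were higher, against 36.9%, and 58 were lower, against 33.0%. The median was -0.67, with quartiles of -0.89 and -0.22, against 0.01 over all genes. Leaving out any 1 of the 6 libraries gave between 12 and 19 members called lower and between 54 and 61 lower at the adjusted p alone. The members lower at the adjusted p alone in both breeds numbered 40, which is 95.2% of those in HZ and 69.0% of those in LC. Over all genes tested, the genes lower in both were 77.9% of those in HZ and 77.4% of those in LC. Without the assembled rows, 2 members were called higher and 14 lower. Among the members called lower in both breeds were RPL10, RPL39 and RPL4, and RPL10L was called higher in both. RPL3L and 4 assembled rows were called higher in both as well, but in HZ all 5 passed the filter through their 120-day counts, so a lower call was not open to them there.

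The choice of scaling moved the log2 fold changes with age. Against a median over all genes of -0.02 in HZ and 0.01 in LC under TMM, scaling by library size alone gave -0.32 in HZ and -0.16 in LC, upper-quartile scaling gave -0.34 and -0.25, log2(FPKM + 1) gave -0.28 and -0.16, and log2(FPKM + 0.1) gave -0.47 and -0.27. The members' median minus that of all genes was -0.40 in HZ under TMM, -0.40 under library size, -0.40 under the upper quartile, -0.63 on log2(FPKM + 1) and -0.44 on log2(FPKM + 0.1). The same difference in LC was -0.68, -0.68, -0.68, -0.81 and -0.71. Of all calls with age in HZ, 54.8% were higher under TMM, 44.1% under library size, 43.7% under the upper quartile, 42.3% on log2(FPKM + 1) and 38.5% on log2(FPKM + 0.1). In LC the split was 57.7% under TMM, 50.7% under library size, 47.1% under the upper quartile, 52.2% on log2(FPKM + 1) and 46.1% on log2(FPKM + 0.1). For the members in HZ, library size gave 58 lower and 9 higher at the adjusted p alone, the upper quartile gave 59 and 9, log2(FPKM + 1) gave 65 and 7, and log2(FPKM + 0.1) gave 64 and 8. In LC these counts were 69 and 9 under library size, 73 and 9 under the upper quartile, 74 and 9 on log2(FPKM + 1) and 74 and 9 on log2(FPKM + 0.1). No share of all genes at the adjusted p alone is given for these scalings, here or below. The counts at the adjusted p alone are therefore not set against all genes outside TMM.

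Between the breeds at 30 days, 82 members passed the filter. Here 2 were called higher in LC, against 3.6% of all genes, and 2 were called lower, against 4.01%. At the adjusted p alone, 47 members were higher in LC, against 10.1% of all genes, and 2 were lower, against 11.2%. The median was 0.40, with quartiles of 0.24 and 0.52, and that of all genes was 0.00. This count rested on the libraries used, with 26 members higher without Ha1, 28 without Ha2, 29 without La1 and 28 without La2, while leaving out Ha3 or La3 gave 50 each. La3 was the lowest La library for 75 of 81 members. The 2 members called higher were RPS4X and the assembled RPL10 row, and the 2 called lower were RPL10L and the assembled RPL9 row. The assembled RPL10 row passed the filter through La alone and the assembled RPL9 row through Ha alone, so their directions were set by the filter. Calls higher numbered 1 without Ha2, La1 or La2, 4 without Ha3 and 3 without La3, and calls lower numbered 1 without any 1 library other than Ha3.

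Between the breeds at 120 days, 87 members passed the filter. RPS4X alone was called higher in LC by edgeR, against 2.65% of all genes, and it was also the 1 member higher at the adjusted p alone, against 3.25%. With Hb3 at 0, RPS4X passed the filter through its Lb counts, so its direction was not free of the filter. With the same test, 0 members were called lower, against 1.2%, and 0 were lower at the adjusted p alone, against 2.22%. At an unadjusted p under 0.05, 7 members were higher and 4 were lower. DESeq2 gave 2 members higher and 2 lower at the adjusted p alone, limma on log2(FPKM + 1) gave 2 and 1, and a fit of all 12 libraries gave 2 and 3. The shares of all genes above belong to edgeR's adjusted p, and none is given for the unadjusted p or these alternatives. The members' median was 0.19, against 0.00 over all genes. Without Lb2 no member passed, with an adjusted p of 0.0616 for RPS4X, and without Hb2 there were 3 higher at the adjusted p alone. Of all calls, 68.8% were higher under TMM, 76.1% under library size, 79.7% on log2(FPKM + 1) and 80.0% on log2(FPKM + 0.1). On the latter scale the median over all genes was 0.12, and that of the members less that was 0.20.

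Whether the change with age differed between the breeds was tested as an interaction, the log2 fold change with age in LC minus that in HZ. Of 87 members tested, 3 were called lower, against 1.62% of all genes, and 8 were lower at the adjusted p alone, against 2.68%. With edgeR, 0 members were called higher, against 3.51%, and 0 were higher at the adjusted p alone, against 4.56%. At an unadjusted p under 0.05, 2 members were higher and 19 lower, and DESeq2 gave 0 higher and 16 lower at the adjusted p alone. With the fold threshold, DESeq2 called 3 lower, against 3.19% of all genes. No share of all genes is given here for the unadjusted p or for DESeq2's adjusted p alone. The median was -0.28 among members and 0.02 over all genes. Of all interaction calls, 68.4% were higher under TMM and 81.6% under library size, where 3 members were lower and 0 higher at the adjusted p alone. Leaving out 1 library gave between 1 and 9 members at the adjusted p alone. The count was 1 without Ha1, Ha2, Hb3, La1 or La2, 2 without La3 or Lb1, 3 without Lb2 and 4 without Lb3, and without Ha3 it was 6, of which 1 was higher. Called members numbered 1 without any 1 of Ha1, Ha2, Hb3, La1, La2, La3, Lb2 or Lb3.

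**Figure D2:**
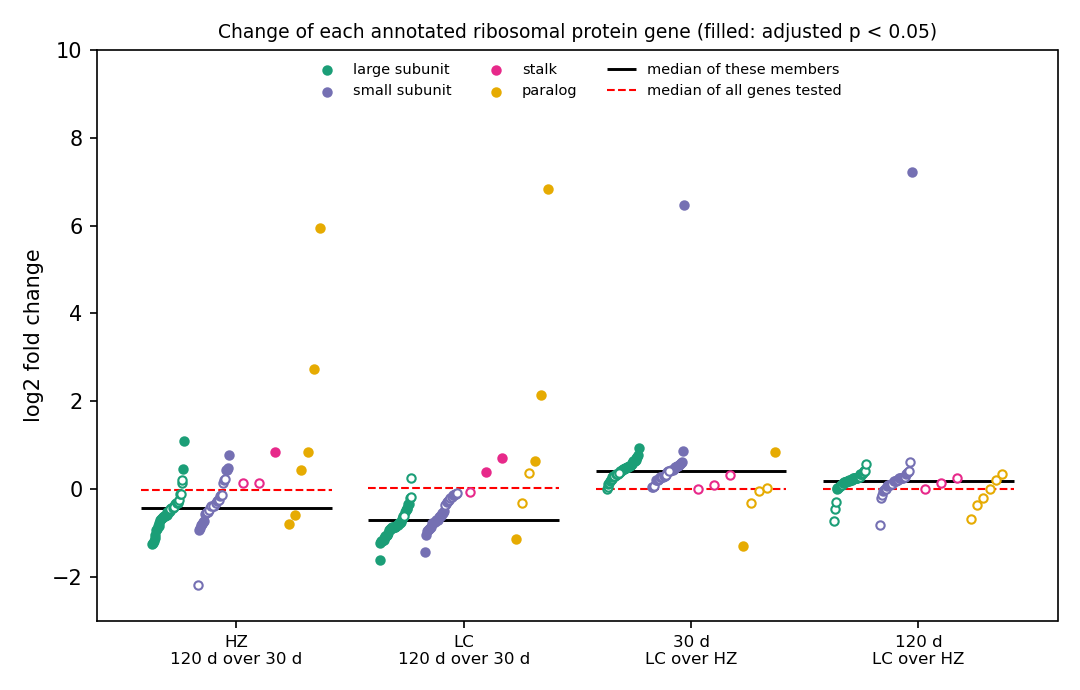
Log2 fold change (vertical axis) of each annotated member in the 4 comparisons, by role, with filled points at an adjusted p under 0.05 in edgeR's quasi-likelihood test and lines at the medians of these members and of all genes tested. Most members sit below the median of all genes with age and above it in LC at 30 days, and RPL10L with age and RPS4X between breeds stand apart, at 5.94 or more.

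The large subunit holds the centre where peptide bonds form and the tunnel through which the new chain leaves. With age in HZ, 28 of its 41 tested members were lower at the adjusted p alone, against 33.0% of all genes, and 2 were higher, against 35.9%, with a median of -0.53. In LC, 37 of 41 were lower, against 33.0%, with a median of -0.86. At 30 days, 28 of 41 were higher in LC than in HZ, against 10.1%, with a median of 0.45. RPL34, which lies on the large subunit's surface (chromosome 8, 113467779 to 113472058), stood, in CPM, at 487, 483 and 563 in Ha, 232, 399 and 313 in Hb, 855, 849 and 819 in La and 338, 369 and 350.1 in Lb. Its La libraries were the highest of all, and in each breed the ages did not overlap. RPL34 had a log2 fold change with age of -0.70 (SE 0.20, adjusted p 0.0161) in HZ and of -1.24 (SE 0.09, adjusted p 7.18e-06) in LC. In HZ it no longer passed without Ha3 (adjusted p 0.0531). At 30 days RPL34 was higher in LC by 0.72 (SE 0.08, adjusted p 0.002), with no overlap. RPL37, a small zinc-binding protein at the core of the subunit (chromosome 16, 25800883 to 25803526), stood, in CPM, at 11.5, 13.5 and 15.1 in Ha, 10.3, 17.7 and 18 in Hb, 29.8, 30.9 and 16.6 in La and 15.3, 15.6 and 18.9 in Lb. The La1 and La2 values were the highest, while La3 lay close to Hb and Lb. RPL37 had the largest log2 fold change among annotated members that passed at 30 days other than RPS4X, at 0.94 (SE 0.24, adjusted p 0.0273), and it did not pass without Ha1, Ha2, La1 or La2 (adjusted p 0.0906, 0.0748, 0.0847 and 0.0877). With age it passed in neither breed, at 0.20 (adjusted p 0.506) in HZ, where the sign was negative under library size, upper quartile and FPKM, and -0.62 (adjusted p 0.0501) in LC. The LC value passed without La3 (adjusted p 0.00442) and at -0.59 (adjusted p 0.0373) under DESeq2, -0.78 (adjusted p 0.0233) under library size, -0.88 (adjusted p 0.0121) under the upper quartile, -0.86 (adjusted p 0.00948) under log2(FPKM + 1) and -0.88 (adjusted p 0.00891) under log2(FPKM + 0.1).

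The genes of the next sentences were chosen after their values were seen. RPL4, which lines the exit tunnel (chromosome 1, 164476269 to 164481765), had log2 fold changes with age of -1.05 (adjusted p 0.00215) in HZ and -1.17 (adjusted p 1.36e-05) in LC, with no overlap of the ages. RPL27 (chromosome 12, 19892210 to 19894202) was called lower in HZ at -1.12 (adjusted p 0.000442), and its value in LC was -0.91 (adjusted p 6.04e-05). RPL21 (chromosome 11, 4731747 to 4736177) went the other way in HZ and stood, in CPM, at 142, 143 and 165 in Ha, 277, 329 and 348 in Hb, 205, 202 and 166 in La and 202, 207 and 259 in Lb. Its Hb libraries were the highest of all 12, and its La and Lb libraries overlapped. RPL21 had a log2 fold change with age of 1.08 (SE 0.14, adjusted p 0.000331) in HZ and of 0.24 (SE 0.14, adjusted p 0.159) in LC. In HZ it passed at the adjusted p alone but not the fold threshold at 0.78 under library size and 0.77 under the upper quartile. The same held at 0.60 on log2(FPKM + 1) and 0.61 on log2(FPKM + 0.1). In LC its sign was negative under the upper quartile and FPKM, and the interaction was -0.86 (adjusted p 0.0264), which passed in 5 of the 12 fits that left out 1 library.

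The small subunit reads the messenger RNA and binds the initiation factors. With age in HZ, 12 of its 31 members were lower at the adjusted p alone, against 33.0% of all genes, and 4 were higher, against 35.9%, with a median of -0.38. In LC, 20 of 31 were lower, against 33.0%, with a median of -0.62, and at 30 days 17 of 31 were higher in LC, against 10.1%, with a median of 0.40. RPSA, the laminin receptor protein bound late to the small subunit (chromosome 13, 24072551 to 24081536), stood, in CPM, at 1100.3, 1082 and 1065 in Ha, 894, 946 and 874 in Hb, 1220.5, 1119 and 1015 in La and 938, 1193 and 990.1 in Lb. Hb lay below Ha in every library, and La and Lb overlapped. RPSA had a log2 fold change with age of -0.26 (SE 0.12, adjusted p 0.084) in HZ and of -0.09 (SE 0.12, adjusted p 0.541) in LC. RPSA passed in HZ at -0.21 (adjusted p 0.0338) under DESeq2, -0.56 (adjusted p 0.00526) under library size, -0.58 (adjusted p 0.00362) under the upper quartile, -0.75 (adjusted p 0.00221) under log2(FPKM + 1) and -0.75 (adjusted p 0.00155) under log2(FPKM + 0.1), and without Hb2 (adjusted p 0.0256). In LC it passed at -0.35 (adjusted p 0.0377) under the upper quartile, -0.40 (adjusted p 0.0268) under log2(FPKM + 1) and -0.41 (adjusted p 0.0205) under log2(FPKM + 0.1). Between the breeds its values were 0.04 (adjusted p 0.757) at 30 days and 0.24 (adjusted p 0.303) at 120 days.

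RPS24, a small-subunit protein (chromosome 14, 80473867 to 80480818), stood, in CPM, at 79.1, 78.9 and 95.4 in Ha, 95, 133 and 122 in Hb, 155, 159 and 144 in La and 89.5, 90 and 114 in Lb. It was highest in La, where all 3 libraries lay above the other 9, and Hb1 lay inside the range of Ha. RPS24 had a log2 fold change with age of 0.46 (SE 0.16, adjusted p 0.033) in HZ and of -0.63 (SE 0.13, adjusted p 0.00261) in LC. In HZ it did not pass under library size, at 0.17 (adjusted p 0.436), or the upper quartile, at 0.15 (adjusted p 0.456), and the sign was negative on FPKM. The interaction was -1.11 (adjusted p 0.0129), and in LC at 30 days RPS24 was higher by 0.85 (adjusted p 0.00188). RPS25, which helps some viral and cellular messages to bind the subunit (chromosome 9, 46237911 to 46242174), stood, in CPM, at 10.6, 12.4 and 10.3 in Ha, 16.5, 17 and 23.7 in Hb, 15.4, 13.2 and 12.3 in La and 12.7, 9.51 and 9.14 in Lb. Its Hb libraries lay above all 9 others, and La and Lb overlapped. RPS25 had a log2 fold change with age of 0.78 (SE 0.20, adjusted p 0.0107) in HZ and of -0.37 (SE 0.20, adjusted p 0.122) in LC. The HZ value did not pass under library size, at 0.47 (adjusted p 0.0755), or the upper quartile, at 0.47 (adjusted p 0.0777), while the LC value passed at -0.54 (adjusted p 0.0326) under library size, -0.63 (adjusted p 0.0166) under the upper quartile, -0.45 (adjusted p 0.0179) under log2(FPKM + 1) and -0.50 (adjusted p 0.0174) under log2(FPKM + 0.1). Its interaction was -1.16 (adjusted p 0.0315). RPS24 and RPS25 were chosen after their values were seen. RPS7 (chromosome 3, 131258709 to 131263285), which takes part in maturation of the subunit, had the smallest change among members that passed higher in LC at 30 days, at 0.27 (adjusted p 0.0489), and did not pass in any fit that left out 1 library, with adjusted p values from 0.051 (without Ha3) to 0.151 (without Ha2), or at 0.23 (adjusted p 0.0809) under library size, 0.27 (adjusted p 0.0615) under the upper quartile, 0.24 (adjusted p 0.125) under log2(FPKM + 1) and 0.24 (adjusted p 0.108) under log2(FPKM + 0.1). With DESeq2 it passed, at 0.28 (adjusted p 0.0109).

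RPS26 (chromosome 5, 21431656 to 21433691), the second most abundant member, stood, in CPM, at 621, 648 and 697 in Ha, 569, 490.5 and 477 in Hb, 858, 822 and 692 in La and 629, 725 and 578 in Lb. Ha lay above Hb in every library, and La3 lay inside the range of Lb. RPS26 had a log2 fold change with age of -0.36 (SE 0.13, adjusted p 0.0435) in HZ and of -0.28 (SE 0.12, adjusted p 0.071) in LC. The HZ value did not pass without Ha1, Ha2, Ha3 or Hb3 (adjusted p 0.0764, 0.0984, 0.121 and 0.126), while the LC value passed without La3 or Lb2 (adjusted p 0.0375 and 0.0355), and at -0.45 (adjusted p 0.00718) under library size, -0.54 (adjusted p 0.00482) under the upper quartile, -0.59 (adjusted p 0.0056) under log2(FPKM + 1) and -0.59 (adjusted p 0.00338) under log2(FPKM + 0.1). The interaction of RPS26 was 0.06 (adjusted p 0.878). RPS12 (chromosome 1, 30920804 to 30923392) had values of 0.14 (adjusted p 0.366) in HZ, negative under library size, upper quartile and FPKM, and -0.21 (adjusted p 0.0747) in LC, where it passed at -0.38 (adjusted p 0.00579) under library size, -0.48 (adjusted p 0.00242) under the upper quartile, -0.52 (adjusted p 0.00585) under log2(FPKM + 1) and -0.53 (adjusted p 0.00314) under log2(FPKM + 0.1). At 30 days RPS12 was higher in LC by 0.52 (adjusted p 0.00544).

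The stalk of the large subunit, made of RPLP0, RPLP1 and RPLP2, recruits and activates the elongation factors. RPLP0 (chromosome 14, 40219196 to 40223943) stood, in CPM, at 2154, 2072 and 2363 in Ha, 4123, 3570.4 and 4109 in Hb, 2553, 2413 and 2096 in La and 3884, 4061 and 3425 in Lb. In both breeds every 120-day library lay above every 30-day library, and the breeds overlapped at each age. RPLP0 had a log2 fold change with age of 0.84 (SE 0.15, adjusted p 0.0019) in HZ and of 0.70 (SE 0.11, adjusted p 0.000668) in LC. In HZ it did not pass on log2(FPKM + 1), at 0.35 (adjusted p 0.106), or log2(FPKM + 0.1), at 0.35 (adjusted p 0.0706). RPLP1 (chromosome 1, 167296084 to 167298264) stood, in CPM, at 403, 422 and 445 in Ha, 375, 551 and 473 in Hb, 570.1, 573 and 432 in La and 477, 518 and 492 in Lb. Its ages overlapped in both breeds, with La3 the lowest La library. RPLP1 had log2 fold changes with age of 0.14 (adjusted p 0.464) in HZ, negative under library size, upper quartile and FPKM and without Hb2, and -0.07 (adjusted p 0.66) in LC, where it passed at -0.37 (adjusted p 0.0459) under log2(FPKM + 1) and -0.37 (adjusted p 0.0378) under log2(FPKM + 0.1). At 30 days it was 0.31 (adjusted p 0.1) in LC over HZ, and it passed without La3 (adjusted p 0.0267).

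RPLP2 (chromosome 2, 507891 to 509818) stood, in CPM, at 220.3, 222 and 226 in Ha, 236, 230.1 and 273 in Hb, 238, 241 and 188 in La and 266, 302 and 287 in Lb. Each 120-day library lay above each 30-day library of its breed. Its log2 fold changes with age were 0.14 (adjusted p 0.302) in HZ, negative under library size, upper quartile and FPKM, where it passed at -0.35 (adjusted p 0.0362) under log2(FPKM + 1) and -0.35 (adjusted p 0.0313) under log2(FPKM + 0.1), and 0.38 (adjusted p 0.0239) in LC, with an interaction of 0.22 (adjusted p 0.465). The LC value did not pass under library size, at 0.21 (adjusted p 0.175), the upper quartile, at 0.11 (adjusted p 0.462), log2(FPKM + 1), at 0.07 (adjusted p 0.646), or log2(FPKM + 0.1), at 0.07 (adjusted p 0.637), nor without La3 or Lb2 (adjusted p 0.0854 and 0.0659). The median of the 3 stalk genes was 0.14 in HZ, -0.16 there under library size and -0.35 on log2(FPKM + 1), and 0.38 in LC. Relative to all genes, the HZ median was 0.16 under TMM, 0.17 under library size and -0.07 on log2(FPKM + 1).

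RPL10L (chromosome 1, 176603177 to 176604116) is the intronless autosomal copy of RPL10, and RPL10 (chromosome X, 124927249 to 124929791) is a protein added last to the large subunit. RPL10L stood, in CPM, at 4.34, 3.49 and 1.75 in Ha, 221, 167 and 201 in Hb, 1.44, 1.21 and 1.23 in La and 159.5, 156 and 123 in Lb. All 6 libraries at 120 days were above 120 CPM and all 6 at 30 days were under 5 CPM. RPL10L had a log2 fold change with age of 5.94 (SE 0.35, adjusted p 1.07e-05) in HZ and of 6.83 (SE 0.17, adjusted p 3.90e-08) in LC. That is 61.4-fold in HZ and 113-fold in LC, and the interaction was 0.87 (adjusted p 0.176). RPL10 stood, in CPM, at 995, 1011 and 1232 in Ha, 382, 616 and 377 in Hb, 1625, 1755 and 1432 in La and 489.6, 576 and 471 in Lb. Every 30-day library lay above every 120-day library, Hb2 was the highest at 120 days, and La lay above Ha. RPL10 had a log2 fold change with age of -1.24 (SE 0.22, adjusted p 0.00191) in HZ and of -1.63 (SE 0.12, adjusted p 7.02e-06) in LC. As a percent of RPL10 on the FPKM scale, RPL10L came to 0.278% ± 0.136 (SD, n = 3) in Ha, 41.6% ± 15 in Hb, 0.0733% ± 0.00980 in La and 25.8% ± 3.16 in Lb. Within Hb, this percentage was lowest in Hb2, at 24.5%.

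Between the breeds at 30 days, RPL10L was lower in LC at -1.30 (SE 0.37, adjusted p 0.0416), on counts of 113, 87 and 45 in Ha and 34, 24 and 31 in La. The groups did not overlap, and the value did not pass without Ha1, Ha2, La1, La2 or La3, at adjusted p values of 0.135, 0.111, 0.0897, 0.114 and 0.124. At 120 days it was -0.38 (adjusted p 0.17). Some spermatocyte and spermatogonial markers, given below, were also lower in LC at 30 days, and their part in this value was not tested. RPL10 was higher in LC at 30 days by 0.57 (SE 0.11, adjusted p 0.0122), with no overlap, and did not pass at 120 days, at 0.20 (adjusted p 0.616).

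**Figure D3:**
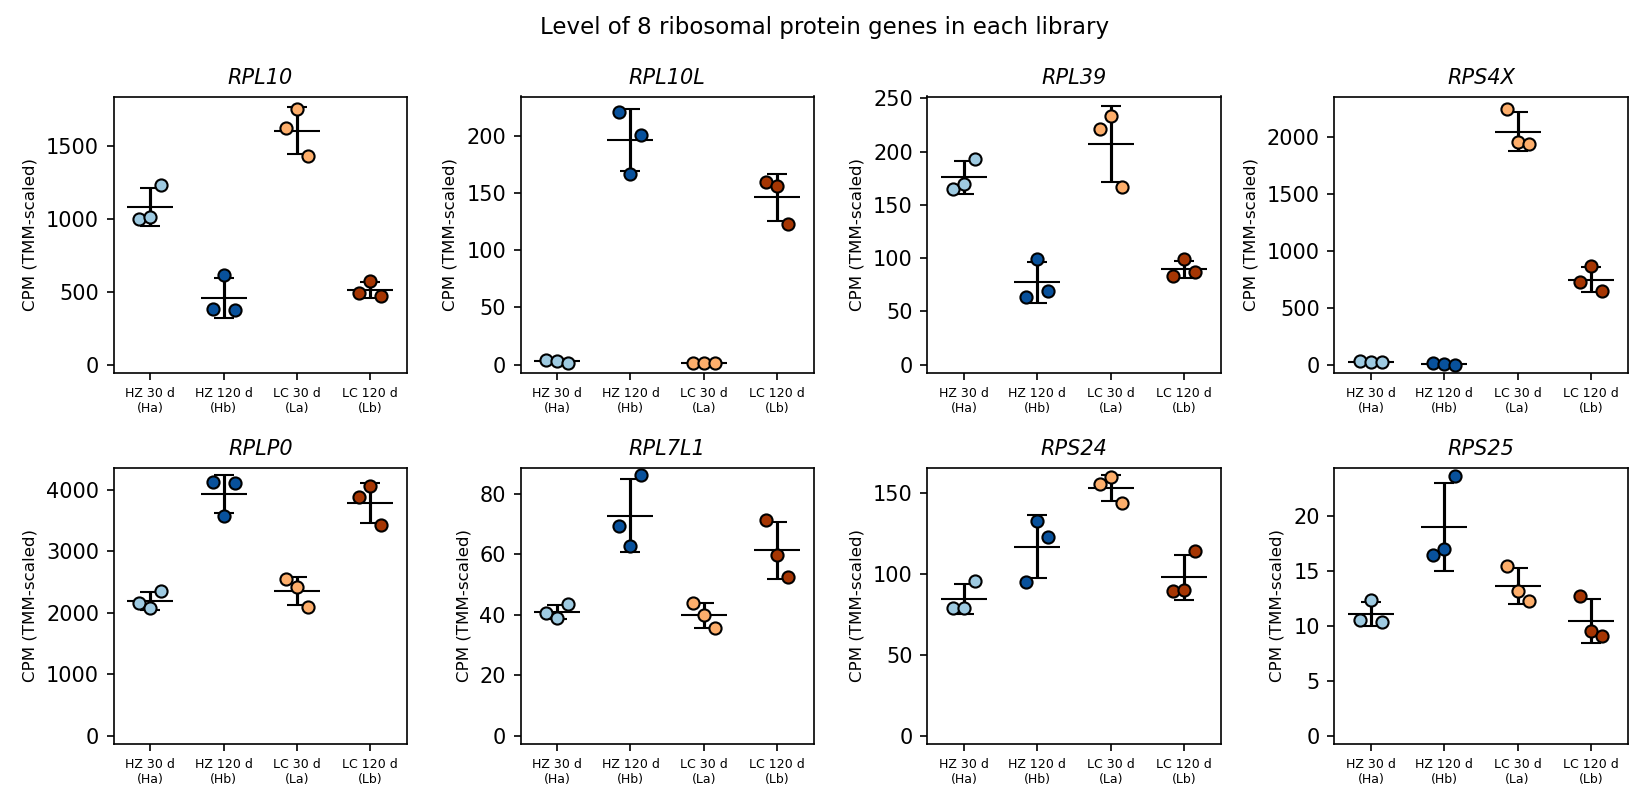
Level in CPM (vertical axes, linear) of 8 members in each of the 12 libraries, with group means and SD (n = 3). RPL10L is at 123 CPM or more in each 120-day library and under 5 CPM in each 30-day library, while RPS4X is at 647 CPM or more in each LC library and under 30 CPM in each HZ library.

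RPL3L (chromosome 3, 40004907 to 40016702) is the muscle paralog of RPL3, which lies beside the centre of peptide bond formation. Its counts were 4, 9 and 15 in Ha, 52, 43 and 36 in Hb, 9, 8 and 6 in La and 34, 35 and 24 in Lb. The 120-day libraries lay above the 30-day libraries in both breeds, at low counts throughout. RPL3L had a log2 fold change with age of 2.73 (SE 0.53, adjusted p 0.00278) in HZ and of 2.13 (SE 0.39, adjusted p 0.00131) in LC. It passed the filter in both breeds through the 120-day counts, so a lower call was not open to it. RPL3 (chromosome 5, 8922697 to 8929768) went down with age, at -0.67 (adjusted p 0.0116) in HZ and -1.06 (adjusted p 2.70e-05) in LC. On the FPKM scale RPL3L was 0.414% ± 0.134 of RPL3 in Hb and 0.202% ± 0.0275 in Lb. At 30 days RPL3L did not pass the filter between breeds.

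RPL7L1 (chromosome 7, 37940549 to 37948258), a nucleolar relative of RPL7, stood, in CPM, at 40.4, 38.8 and 43.6 in Ha, 69.5, 62.8 and 86.1 in Hb, 44, 40 and 35.7 in La and 71.5, 59.8 and 52.6 in Lb. Each 120-day library lay above each 30-day library, and the breeds overlapped at each age. RPL7L1 had a log2 fold change with age of 0.83 (SE 0.15, adjusted p 0.00221) in HZ and of 0.63 (SE 0.14, adjusted p 0.00407) in LC. In HZ it did not pass on log2(FPKM + 1), at 0.31 (adjusted p 0.0617), or log2(FPKM + 0.1), at 0.33 (adjusted p 0.0643). RPL7 (chromosome 4, 62602430 to 62605892) had values of -0.44 (adjusted p 0.0311) in HZ, which did not pass without Ha1, Ha2, Ha3, Hb1 or Hb3 (adjusted p from 0.055 to 0.101), and -0.86 (adjusted p 6.80e-05) in LC. RPL7 was higher in LC at 30 days by 0.64 (adjusted p 0.00309). As a percent of RPL7 in FPKM, RPL7L1 was 3.18% ± 0.172 in Ha, 7.88% ± 2.29 in Hb, 1.98% ± 0.185 in La and 5.62% ± 1.01 in Lb.

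RPL22L1 (chromosome 13, 109495771 to 109499495), a paralog that substitutes for the RNA-binding protein RPL22, stood, in CPM, at 25.9, 27.4 and 36.3 in Ha, 21.2, 20.6 and 17.9 in Hb, 52.7, 52.2 and 56.3 in La and 27.4, 17.3 and 28 in Lb. The La libraries were the highest of the 12, and in each breed the ages did not overlap. RPL22L1 had a log2 fold change with age of -0.58 (SE 0.18, adjusted p 0.0238) in HZ and of -1.13 (SE 0.19, adjusted p 0.000867) in LC. In HZ it did not pass without Ha3 or Hb3 (adjusted p 0.0804 and 0.0713), and the interaction was -0.57 (adjusted p 0.222). At 30 days RPL22L1 was higher in LC by 0.85 (SE 0.14, adjusted p 0.0057), with no overlap. RPL22 (chromosome 6, 67092892 to 67102086) had values of -0.60 (adjusted p 0.0193) in HZ, which did not pass without any 1 library other than Ha1 or Hb2 (adjusted p from 0.0517 without Hb1 to 0.0639 without Hb3), and -0.82 (adjusted p 0.00113) in LC. RPL22L1 came to 42.2% ± 6.25 of RPL22 in FPKM in Ha, 44.3% ± 10.3 in Hb, 58.3% ± 8.89 in La and 46.6% ± 10.8 in Lb, and each La library lay above each Ha library.

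RPS27L (chromosome 1, 108881330 to 108886334), a p53-responsive paralog of the zinc-finger protein RPS27, stood, in CPM, at 12.9, 14.2 and 13.2 in Ha, 9.97, 6.04 and 6.99 in Hb, 11.12, 9.45 and 11.6 in La and 8.56, 7.34 and 9.50 in Lb. Ha lay above Hb in every library, and La and Lb overlapped. RPS27L had a log2 fold change with age of -0.81 (SE 0.24, adjusted p 0.0179) in HZ and of -0.32 (SE 0.19, adjusted p 0.165) in LC. The interaction was 0.47 (adjusted p 0.36), and the HZ value did not pass without Ha2 or Hb3 (adjusted p 0.0604 and 0.0528). The LC value passed at -0.59 (adjusted p 0.0234) under the upper quartile, -0.58 (adjusted p 0.00654) under log2(FPKM + 1) and -0.63 (adjusted p 0.00644) under log2(FPKM + 0.1). RPS27 (chromosome 4, 95697869 to 95699481) had values of -0.54 (adjusted p 0.0551) in HZ and -0.89 (adjusted p 0.00148) in LC, with an interaction of -0.37 (adjusted p 0.476), and it passed in HZ at -0.83 (adjusted p 0.0183) under library size, -0.84 (adjusted p 0.0141) under the upper quartile, -1.06 (adjusted p 0.00662) under log2(FPKM + 1) and -1.06 (adjusted p 0.00622) under log2(FPKM + 0.1), and without Hb2 (adjusted p 0.0341). At 30 days RPS27 was 0.40 (adjusted p 0.109) and passed without La3 (adjusted p 0.0285).

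RPL26L1 (chromosome 16, 51267492 to 51276692), a close copy of RPL26, stood, in CPM, at 15, 17.3 and 14 in Ha, 21, 19 and 22.6 in Hb, 16.5, 19.4 and 11.5 in La and 21.7, 20.7 and 17.9 in Lb. Hb lay above Ha in every library, and La and Lb overlapped. RPL26L1 had a log2 fold change with age of 0.43 (SE 0.16, adjusted p 0.0475) in HZ and of 0.36 (SE 0.21, adjusted p 0.146) in LC. The HZ value passed in the fit without Hb2 and in no other fit that left out 1 library (adjusted p from 0.0616 without Ha2 to 0.15 without Ha3), did not pass at 0.12 (adjusted p 0.521) under library size and 0.12 (adjusted p 0.536) under the upper quartile, and was negative on FPKM. Its interaction was -0.09 (adjusted p 0.884). RPL26 (chromosome 12, 53548313 to 53553453), at the end of the exit tunnel, had values of -0.46 (adjusted p 0.214) in HZ and -0.77 (adjusted p 0.00382) in LC, with an interaction of -0.33 (adjusted p 0.642). Without Hb2, where RPL26 stood at 151 CPM against 65.6 in Hb1 and 93.6 in Hb3, it passed in HZ at -0.86 (adjusted p 0.0248), and with all libraries it passed at -1.002 (adjusted p 0.0311) under log2(FPKM + 1) and -1.01 (adjusted p 0.0299) under log2(FPKM + 0.1).

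RPL10, RPL39, RPL36A and RPS4X lie on chromosome X. With age, 2 of these 4 were called lower in HZ, against 23.2% of all genes and 226 of 601 tested genes on X. In LC, 4 of 4 were, against 20.1% of all genes and 185 of 614 on X. The 4 members had medians of -1.22 and -1.32. The 77 tested autosomal members with an annotation had medians of -0.44 and -0.69, and all tested genes on X had -0.78 and -0.50. RPL39 (chromosome X, 98178148 to 98181439), a small protein of the exit tunnel whose autosomal copy RPL39L had no row, stood, in CPM, at 165, 169.6 and 193 in Ha, 63.2, 99 and 69 in Hb, 221, 233 and 167 in La and 83.5, 98.7 and 86.6 in Lb. Each 30-day library lay above each 120-day library, and the breeds overlapped at each age. RPL39 had a log2 fold change with age of -1.19 (SE 0.19, adjusted p 0.000965) in HZ and of -1.19 (SE 0.14, adjusted p 0.00012) in LC. RPL36A (chromosome X, 83018305 to 83022285), near the exit site of the large subunit, stood, in CPM, at 13.9, 15 and 15.4 in Ha, 11.5, 12.2 and 11.5 in Hb, 16.8, 15.6 and 11.7 in La and 7.26, 5.27 and 8.01 in Lb. The ages did not overlap in either breed, and Lb held the lowest 3 libraries. RPL36A had a log2 fold change with age of -0.33 (SE 0.16, adjusted p 0.101) in HZ and of -1.08 (SE 0.23, adjusted p 0.00326) in LC. In HZ it passed at -0.63 (adjusted p 0.012) under library size, -0.64 (adjusted p 0.00886) under the upper quartile, -0.77 (adjusted p 0.00061) under log2(FPKM + 1) and -0.81 (adjusted p 0.00067) under log2(FPKM + 0.1), and the interaction was -0.78 (adjusted p 0.106). Between the breeds RPL36A was -0.01 (adjusted p 0.976) at 30 days and -0.74 (adjusted p 0.11) at 120 days, where DESeq2 gave -0.75 (adjusted p 0.0432).

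RPS4X (chromosome X, 58149302 to 58155179), which binds RNA on the back of the small subunit, had the largest log2 fold change between the breeds among the annotated members. Its estimated counts were 778, 486 and 518 in Ha, 171, 114 and 0 in Hb, 52893, 38866 and 48798 in La and 15665, 18353 and 12603 in Lb. Every LC library was far above every HZ library, and Hb3 was at 0. RPS4X stood, in CPM, at 29.9, 19.5 and 20.1 in Ha, 9.91, 5.29 and 0 in Hb, 2244, 1953 and 1939 in La and 725, 864 and 647 in Lb. It was higher in LC by 6.46 (SE 0.21, adjusted p 7.15e-06) at 30 days and by 7.23 (SE 1.03, adjusted p 0.015) at 120 days, which is 88-fold and 150.3-fold. The fold at 120 days is not exact, since Hb was low with Hb3 at 0. For the same reason RPS4X passed the filter through its Lb counts at 120 days and through its Ha counts with age in HZ. Its direction in these comparisons was therefore not free of the filter. On log2(FPKM + 1) the 120-day value was 7.05 and on log2(FPKM + 0.1) it was 8.41. The 120-day value did not pass without Lb2, at 7.13 (adjusted p 0.0616), in a fit where Lb kept 2 libraries. In La, RPS4X made up a larger part of the members' counts, and without it the members' share was 4.61% ± 0.368 in La and 3.63% ± 0.287 in Ha, with no overlap. RPS4X had a log2 fold change with age of -2.18 (SE 1.0, adjusted p 0.0868) in HZ and of -1.44 (SE 0.13, adjusted p 2.07e-05) in LC. In HZ it passed at -2.46 (adjusted p 0.00394) under log2(FPKM + 1) and -3.73 (adjusted p 0.0256) under log2(FPKM + 0.1), and without Hb1 (adjusted p 0.0461) or Hb3 (adjusted p 0.00919), and the interaction was 0.72 (adjusted p 0.679).

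The genes next to RPS4X on X were looked at after its values were seen. RTL5 was higher in LC by 1.28 (adjusted p 0.0273) at 30 days and 1.67 (adjusted p 0.0284) at 120 days, and ERCC6L was lower in LC at 30 days, at -0.92 (adjusted p 0.00436), and -0.45 (adjusted p 0.267) at 120 days. PIN4, on the side of RTL5, was at 0.21 (adjusted p 0.405) and -0.27 (adjusted p 0.535). CITED1, on the other side, was at -0.09 (adjusted p 0.689) and 0.91 (adjusted p 0.0931), HDAC8 at 0.18 (adjusted p 0.478) and 0.11 (adjusted p 0.842), and PHKA1 at -0.19 (adjusted p 0.147) and -0.29 (adjusted p 0.35). The 2 unnamed rows of the table described as S4 of the X isoform held at most 8 counts in any library. Whether the low HZ counts of RPS4X come from expression or from how reads were assigned was not tested.

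The 7 assembled rows carry a ribosomal protein symbol without a position in the gene tables. Of 5 tested with age, 4 were called higher in HZ and 5 in LC. In HZ all 4, and in LC the RPL21, RPS15A, RPS20 and RPS29 rows, had too few counts at 30 days for the filter and passed it through their 120-day counts, which left no way to be called lower. The assembled RPS20 row had counts of 0, 0 and 0 in Ha, 18, 49 and 25 in Hb, 0, 0 and 0 in La and 29, 95 and 54 in Lb. It was at 0 in all 6 libraries at 30 days, and at 120 days it was at least 14.1-fold higher in HZ and at least 21.6-fold higher in LC, against 3 counts per library. The assembled RPS29 row had counts of 1, 0 and 0 in Ha, 63, 93 and 37 in Hb, 1, 0 and 0 in La and 41, 83 and 61 in Lb. At most 1 count was seen in a 30-day library. The assembled RPL21 row had counts of 0, 0 and 0 in Ha, 15, 12 and 1 in Hb, 0, 0 and 0 in La and 52, 88 and 56 in Lb. It was at 0 at 30 days, was at least 23.7-fold higher with age in LC, and did not pass the filter in HZ.

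The assembled RPL10 row had counts of 9, 2 and 3 in Ha, 101, 73 and 83 in Hb, 26, 26 and 18 in La and 96, 118 and 100 in Lb. La lay above Ha, and the 120-day groups overlapped. With Ha under 10 counts, the row passed the filter through Hb with age in HZ and through La at 30 days, so its direction in these comparisons was set by the filter. It rose with age by 4.71 (SE 0.58, adjusted p 0.000313) in HZ and 2.29 (SE 0.32, adjusted p 0.000264) in LC, and was higher in LC at 30 days by 2.47 (SE 0.57, adjusted p 0.0205), which did not pass without Ha2, La1 or La2 (adjusted p 0.0709, 0.0604 and 0.0692). The assembled RPL9 row had counts of 208, 159.6 and 331 in Ha, 76.3, 136 and 4.05 in Hb, 1.01, 0 and 0 in La and 0, 34.4 and 0 in Lb. Ha was high and La at or near 0, Hb3 was far below Hb1 and Hb2, and of Lb only Lb2 held counts. It was called lower in LC at 30 days (adjusted p 0.000344) and did not pass with age in HZ, at -1.30 (adjusted p 0.188), other than on log2(FPKM + 1), at -1.93 (adjusted p 0.0329), or between breeds at 120 days, at -2.74 (adjusted p 0.293). The assembled RPS15A row had counts of 2, 9 and 0 in Ha, 101, 14 and 13 in Hb, 0, 0 and 2 in La and 25, 23 and 18 in Lb. Hb1 held most of the Hb counts, and the HZ change of 4.04 (adjusted p 0.0231) did not pass without Ha1, Ha3 or Hb1 (adjusted p 0.0774, 0.0587 and 0.0925), nor on log2(FPKM + 1), at 1.23 (adjusted p 0.0537). The assembled RPL31 row held counts in Lb2 (71) and Lb3 (27) alone and did not pass the filter with all libraries in any comparison or in the interaction.

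Of 3 listed ribosomal proteins outside the naming rule, all 3 were tested. RPL36AL, a copy of RPL36A, rose with age by 1.25 (adjusted p 0.000678) in HZ and 0.36 (adjusted p 0.0444) in LC. RACK1, a scaffold on the small subunit, changed by -0.59 (adjusted p 0.0274) and -0.87 (adjusted p 8.31e-05), and FAU, the gene of RPS30, by -0.24 (adjusted p 0.132) and -0.33 (adjusted p 0.0424). The summed level of the 3 in CPM, led by RACK1, was 1530.0, 1496 and 1928 in Ha, 951, 1362 and 1131 in Hb, 2454, 2427 and 2149.6 in La and 1289.7, 1383 and 1306 in Lb. Translation factors, of which 34 of 37 had a row, numbered 14 higher and 6 lower at the adjusted p alone in HZ with age, against 35.9% and 33.0% of all genes, and 11 higher and 9 lower in LC, against 36.9% and 33.0%. Their median was 0.31 in HZ, -0.16 there on log2(FPKM + 1) and -0.00420 under the upper quartile, and -0.02 in LC, where DESeq2 gave 0.00730. The initiation factor EIF4G3 rose by 2.74 (adjusted p 8.00e-06) in HZ and 2.27 (adjusted p 5.23e-06) in LC, and the poly(A)-binding PABPC1 by 2.199 (adjusted p 5.10e-05) in HZ, while EIF5 rose by 1.18 (adjusted p 7.26e-05) in LC. EIF2S3 changed by -1.12 (adjusted p 0.000468) and -1.12 (adjusted p 3.51e-05), and TPT1 by -1.01 (adjusted p 0.002) and -1.09 (adjusted p 2.88e-05). Between the breeds, 8 higher and 0 lower passed in LC over HZ at 30 days and 0 higher and 4 lower at 120 days, where at an unadjusted p under 0.05 edgeR gave 0 higher, and at 30 days 1 lower. Of all genes, 10.1% were higher and 11.2% lower at 30 days, and 3.25% and 2.22% at 120 days.

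The genes of ribosome assembly, 38 of 38 with a row and led in level by NPM1, numbered 9 higher and 13 lower in HZ with age and 9 higher and 10 lower in LC at the adjusted p alone, beside the same percentages of all genes. At 30 days 2 were higher and 8 lower in LC, against 10.1% and 11.2%. The kinase RIOK1 rose by 1.72 (adjusted p 0.000157) and 1.39 (adjusted p 9.53e-05), GNL3 by 1.10 (adjusted p 0.000564) in HZ and NOP16 by 1.34 (adjusted p 0.000212) in LC. HEATR3 changed by -1.80 (adjusted p 0.000194) and -1.05 (adjusted p 0.000403), and UBTF, which drives transcription of ribosomal RNA, by -1.32 (adjusted p 0.000163) and -1.27 (adjusted p 9.17e-06). Among 14 regulators of translation and growth, led by MAF1 on the FPKM scale though not in CPM, 5 higher and 3 lower passed in HZ with age, against 35.9% and 33.0% of all genes, and 4 higher and 5 lower in LC, against 36.9% and 33.0%. MTOR rose by 1.74 (adjusted p 3.52e-05) and 1.78 (adjusted p 3.75e-06). RPS6KB2 changed by -2.10 (adjusted p 0.00815) and EIF4EBP1 by -1.11 (adjusted p 0.00091) in HZ, and MYCN by -2.98 (adjusted p 0.02) in LC, with Lb2 at 0. MYCN was also the 1 regulator called between breeds, higher in LC at 30 days by 2.26 (adjusted p 0.00134), against 3.6% of all genes.

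For comparison with RPL10 and RPL10L, 5 other X-linked genes and their 5 autosomal copies were listed. Of the X-linked genes, led by PGK1, 3 were lower in HZ, against 33.0% of all genes, and 3 in LC, against 33.0%, at the adjusted p alone. PGK1 changed by -1.71 (adjusted p 1.93e-05) and -0.86 (adjusted p 7.46e-05) and RBMX by -0.99 (adjusted p 0.00213) and -1.14 (adjusted p 9.93e-05). Their summed level in CPM was 733, 688 and 721 in Ha, 314, 338 and 328 in Hb, 658, 611 and 651 in La and 383, 384 and 393 in Lb. Of the autosomal copies, led by GK2, 3 of 3 tested were called higher in both breeds, against 28.2% of all genes in HZ and 27.5% in LC, with GK2 at 9.95 (adjusted p 2.96e-06) and 9.45 (adjusted p 1.50e-07) and PGK2 at 9.91 (adjusted p 1.65e-06) and 8.98 (adjusted p 1.53e-07). PDHA2 and RBMXL2 were at 0 in every La library. The copies summed, in CPM, to 5.64, 4.06 and 3.34 in Ha, 4088, 2982 and 4072 in Hb, 6.15, 2.26 and 2.54 in La and 2700.5, 2303 and 2000.2 in Lb. RPL10L rose by fewer log2 units than these 3 in both breeds. The 76 mitochondrial ribosomal protein genes, led by MRPL37, numbered 22 higher and 24 lower of 76 tested in HZ with age, against 35.9% and 33.0% of all genes, and 27 higher and 13 lower of 75 tested in LC, against 36.9% and 33.0%. Their medians were -0.12 and -0.00180 (0.03 in LC with DESeq2), and at 30 days 1 was higher and 13 lower in LC of 76 tested, against 10.1% and 11.2%. MRPL42 rose by 1.78 (adjusted p 9.00e-05) in HZ, MRPL15 by 2.62 (adjusted p 6.45e-05) in HZ and 2.39 (adjusted p 5.96e-06) in LC, and MRPL40 by 1.90 (adjusted p 5.64e-05) in LC. MRPL55 changed by -1.52 (adjusted p 7.63e-05) in HZ.

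Several marker lists of cell types also changed with age or between the breeds, and their part in the results on the members was not tested. All genes of each of the 8 lists had a row, and no marker was at 0 in every library of a group. The 8 spermatocyte markers summed, in CPM, to 31.7, 35.6 and 19.9 in Ha, 783, 676 and 651 in Hb, 16.1, 14.1 and 12.7 in La and 502, 485 and 494 in Lb, with PIWIL1 the most abundant. The 10 spermatid markers summed, in CPM, to 4.99, 5.54 and 6.48 in Ha, 6524, 5789 and 8232 in Hb, 8.87, 7.74 and 4.41 in La and 4193, 3452 and 3154 in Lb, with PRM1 the most abundant. All 8 spermatocyte markers and all 9 tested spermatid markers, of which 5 also had counts enough for the test between the 30-day groups, were called higher with age in both breeds, against 28.2% of all genes in HZ and 27.5% in LC, and in both sums the ages did not overlap. The spermatid markers ACRV1, TNP1, TSSK6 and PRM2 passed the filter with age through their 120-day counts, so a lower call was not open to them. In HZ the same held for AKAP4 and TNP2, and in LC for ODF1. At 30 days 4 of the 8 spermatocyte markers were lower in LC at the adjusted p alone, against 11.2% of all genes, namely SYCP2 at -1.29 (adjusted p 0.0188), HORMAD1 at -1.69 (adjusted p 0.0188), PIWIL1 at -1.21 (adjusted p 0.0234) and SYCP1 at -1.38 (adjusted p 0.042). The other 4 had values below 0 and did not pass. None of the 5 tested spermatid markers passed at 30 days, with the adjusted or the unadjusted p, and at 120 days 3 of 10 were lower in LC, against 2.22%. Among the 3 Hb libraries, the spermatid sum was lowest in Hb2, the library with the highest share of member counts. It was highest in Hb3, however, while the share of member counts was lowest in Hb1. The 11 spermatogonial markers summed, in CPM, to 369, 363 and 304 in Ha, 857, 820.3 and 817 in Hb, 223, 222 and 231 in La and 701, 638 and 657 in Lb, with DDX4 the most abundant. With age 4 of them were higher and 7 lower in HZ at the adjusted p alone, and 4 and 6 in LC, against 35.9% and 33.0% of all genes in HZ and 36.9% and 33.0% in LC. Among these, STRA8 (higher) passed the filter through its 120-day counts and NANOS2 (lower) through its 30-day counts, so the opposite call was not open to either. In HZ the same held for UTF1 (lower), which passed through its 30-day counts. At 30 days 4 of 10 tested were lower in LC, against 11.2%, among them DAZL at -1.66 (adjusted p 0.00298).

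Most somatic markers were lower at 120 days. For the counts below, at the adjusted p alone, 33.0% of all genes were lower with age in HZ and 33.0% in LC, 36.9% were higher in LC, 10.1% were higher and 11.2% lower in LC over HZ at 30 days, and 3.25% were higher at 120 days. The 8 Sertoli markers summed, in CPM, to 1269.8, 1209.6 and 1664 in Ha, 405, 579 and 467 in Hb, 2642, 3213 and 2914 in La and 605, 753 and 640.5 in Lb, with INHA the most abundant. At 30 days 3 of the 8, INHA, AMH and FSHR, were higher in LC, and the other 5 did not pass in either direction. With age, 7 were lower in HZ and 6 in LC. The 7 Leydig markers summed, in CPM, to 10086, 9586 and 8750.2 in Ha, 4066, 331 and 268 in Hb, 13676, 9326 and 11211 in La and 4922, 7417 and 3086 in Lb. INSL3 was the most abundant on the FPKM scale. In mean CPM, CYP17A1 was highest in Ha, La and Lb, and INSL3 in Hb. Hb1 was more than 10 times Hb2 and Hb3 in this sum, 4 were lower with age in HZ and 6 in LC, and at 30 days 3 were higher in LC. The 10 peritubular and stromal markers summed, in CPM, to 4731, 4586 and 4509 in Ha, 608, 354 and 255 in Hb, 6908, 6180.4 and 7613 in La and 3084, 3007 and 2571 in Lb, with COL3A1 the most abundant. Of these 8 were lower with age in HZ, and 7 were lower and 1 higher in LC, and in LC over HZ 6 were higher and 1 (ACTA2) was lower at 30 days, and 6, ACTA2 among them, were higher at 120 days. The 5 endothelial markers summed, in CPM, to 669, 681 and 616 in Ha, 173, 305 and 186 in Hb, 795, 627 and 756 in La and 316, 497 and 278 in Lb, with VWF the most abundant. The 5 macrophage markers summed, in CPM, to 124, 101 and 106 in Ha, 17.5, 20.1 and 10.7 in Hb, 122, 107 and 115 in La and 21.3, 37.8 and 35.9 in Lb, with CSF1R the most abundant. All 5 of each were lower with age in HZ, and 4 of each in LC. In HZ the macrophage markers CD68 and AIF1 passed the filter through their 30-day counts, so a higher call was not open to them. The endothelial EMCN was close to that limit in Hb, at 1.24 ± 1.22 CPM. In LC over HZ, 1 endothelial marker was lower at 30 days, and 1 of each list was higher at 120 days. The macrophage marker higher at 120 days, AIF1, passed the filter there through its Lb counts.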

How the data were processed

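RNA of testes from 12 boars was analysed. Per the study's methods, the authors filtered reads with fastp 0.18.0, removed ribosomal reads with Bowtie2 2.2.8, mapped the rest to build Sscrofa11.1 with HISAT2 2.1.0 and assembled transcripts with StringTie 1.3.4. The deposited table gives an estimated count, not normalized, for each coding gene in each library, and the tool that made it is not stated. It also gives FPKM values computed by the authors and rounded to 2 decimals. The tables of long non-coding RNAs were not used here.

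Each library was assigned to its group by its label. For testing, estimated counts were rounded to whole numbers. For each of the 4 comparisons, the 6 libraries were filtered with filterByExpr (minimum count 10), scaled by TMM and compared in edgeR 4.0.16 (R 4.3.3) with its quasi-likelihood F-test, with Benjamini-Hochberg adjustment over all genes tested, and every p-value without another tool's name comes from it. The interaction was tested on 12 libraries. A standard error is the absolute log2 fold change divided by the square root of the F statistic, and groups with 3 counts or fewer in every library carry none. Alternatives were DESeq2 1.42.0, limma 3.58.1 on log2(FPKM + 0.1) and log2(FPKM + 1), testing without a filter, 10 counts in every library of a group, library size alone, upper-quartile scaling, a single fit of 12 libraries, a replicate block and leaving out each library. Python 3.11.15 with numpy 2.4.6, pandas 2.3.3 and matplotlib 3.10.9 made the summaries and figures. Gene positions and names came from the RefSeq gene tables of the build, in which 83 members were matched by identifier.

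Members given in full are the paralogs and their parents, the X-linked, stalk and RPSA genes, the 3 largest and 3 smallest log2 fold changes among members passing in each comparison, the 3 highest and 3 lowest mean FPKM and members that failed the filter. From the other lists, the 2 most changed called genes in each direction are named for the comparisons with age. The gene said to lead a list, or to be its most abundant, is the one highest in FPKM. Lists were translation factors, ribosome assembly, regulators of translation and growth, X-linked genes with autosomal copies, mitochondrial ribosomal proteins and markers of 8 cell types. Some genes that these rules or lists would name are not reported here, though counts, medians and shares over the members include those that are members. The members and lists were chosen with earlier results of these data known.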

Additional observations from a re-analysis of the deposited data

Results flagged for a closer look

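For the 7 members below, the change with age differed between the breeds in the interaction test of edgeR, with the log2 fold change in LC lower than that in HZ in each. RPS24 had an interaction of -1.11 (SE 0.21, adjusted p 0.0129), from 0.46 in HZ and -0.63 in LC, and passed in 11 of 12 fits that left out 1 library (log2 values from -1.21 to -1.01), at adjusted p values from 0.00657 to 0.0544. RPS25 had one of -1.16 (SE 0.28, adjusted p 0.0315), from 0.78 in HZ and -0.37 in LC, and passed in 3 of 12 fits that left out 1 library (log2 values from -1.32 to -0.94), at adjusted p values from 0.0241 to 0.0861. The assembled RPL10 row, with 9, 2 and 3 counts in Ha, had -2.43 (SE 0.63, adjusted p 0.0406), from 4.71 in HZ and 2.29 in LC, and passed in 2 of 12 fits that left out 1 library (log2 values from -3.22 to -2.09), at adjusted p values from 0.0207 to 0.0933. Its HZ value passed the filter through Hb, so the direction of that value was set by the filter. RPS24, RPS25 and this row passed the fold threshold as well.

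RPL21 had an interaction of -0.86 (SE 0.20, adjusted p 0.0264), from 1.08 in HZ and 0.24 in LC, and passed in 5 of 12 fits that left out 1 library (log2 values from -0.96 to -0.75), at adjusted p values from 0.02 to 0.0948. RPL31 had -0.64 (SE 0.14, adjusted p 0.0258), from 0.44 in HZ and -0.18 in LC, and passed in 4 of 12 fits that left out 1 library (log2 values from -0.66 to -0.55), at adjusted p values from 0.0186 to 0.075. RPS3A had -0.63 (SE 0.16, adjusted p 0.0367), from -0.17 in HZ and -0.79 in LC, and passed in 3 of 12 fits that left out 1 library (log2 values from -0.69 to -0.54), at adjusted p values from 0.0318 to 0.134. RPS6 had -0.57 (SE 0.13, adjusted p 0.0234), from 0.42 in HZ and -0.14 in LC, and passed in 5 of 12 fits that left out 1 library (log2 values from -0.58 to -0.52), at adjusted p values from 0.0189 to 0.0783. With library size alone, RPS24, RPS25 and the assembled RPL10 row passed (adjusted p 0.0391, 0.0447 and 0.0447), and the other 4 did not, at adjusted p values from 0.0812 (RPL21) to 0.118 (RPS3A). The HZ value of RPL31 itself did not pass at 0.14 (adjusted p 0.345) under library size and 0.13 (adjusted p 0.373) under the upper quartile, and its LC value passed at -0.34 (adjusted p 0.0199) under library size, -0.44 (adjusted p 0.00518) under the upper quartile, -0.49 (adjusted p 0.00684) under log2(FPKM + 1) and -0.49 (adjusted p 0.00502) under log2(FPKM + 0.1). The HZ value of RPS6 did not pass at 0.12 (adjusted p 0.389) under library size and 0.11 (adjusted p 0.42) under the upper quartile. That of RPS3A passed at -0.47 (adjusted p 0.0288) under library size and -0.48 (adjusted p 0.022) under the upper quartile. On FPKM the HZ values of RPL31, RPS24 and RPS6 were negative, and under the upper quartile and FPKM so was the LC value of RPL21. RPL31, RPL21, RPS24 and RPS6 were chosen for these sentences by their interaction, after the values were seen, as were RPS3A, RPS25 and the assembled row. Why these members differed between the breeds was not tested.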

How the results depend on the processing

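With age in HZ, the members called lower (5 of 86, against 23.2% of all genes) numbered 38 on log2(FPKM + 1), against 23.2%. They numbered 37 on log2(FPKM + 0.1), against 34.7%, 17 under library size, against 30.5%, and 19 under the upper quartile, against 30.8%. Those called higher (7) numbered 4 on log2(FPKM + 1) and 3 over annotated rows alone, an alternative chosen after seeing the data. At the adjusted p alone, lower members (42) numbered 65 on log2(FPKM + 1) and 64 on log2(FPKM + 0.1), and higher members (15) numbered 7, 8, 9 under library size and 9 under the upper quartile. The median of -0.42 became -0.90, -0.91, -0.72 and -0.74 under log2(FPKM + 1), log2(FPKM + 0.1), library size and the upper quartile. In LC, members called lower (14 of 86, against 20.1% of all genes) numbered 42, 42, 30 and 39, in the same order. The share of all genes called lower was below the 20.1% of TMM on log2(FPKM + 1). It was 26.7% on log2(FPKM + 0.1), 24.3% under library size and 26.8% under the upper quartile. The members' median of -0.67 in LC became -0.97, -0.98, -0.84 and -0.93, again in that order. Over annotated rows alone, 2 members were called higher in LC and 5 were higher at the adjusted p alone. These 4 scalings move all genes, as given for the medians of all genes, and the cause beyond that was not tested.

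At 30 days, the members called lower in LC (2) numbered 1 on log2(FPKM + 1), over annotated rows and under the replicate block, those called higher (2) numbered 1 on log2(FPKM + 1) and over annotated rows, and those lower at the adjusted p alone (2) numbered 1 over annotated rows and under the block. At 120 days, members called higher (1) numbered 2 with DESeq2, on both FPKM scales and in the fit of 12 libraries, as did those higher at the adjusted p alone, while lower members (0) numbered 2 with DESeq2, 1 on each FPKM scale and 3 in the fit of 12. In the interaction, members at the adjusted p alone (8) numbered 16 with DESeq2, 3 under library size and 4 under the block, and called members (3) numbered 1 under the block. The member share as a percent of summed FPKM was 11.9 in Ha, 7.61 in Hb, 15.2 in La and 8.82 in Lb. Without RPS4X, an alternative also chosen after seeing the data, the share in counts moved by less than 1 SD in each group.

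Some members changed sign. With age in HZ, under log2(FPKM + 1), log2(FPKM + 0.1), library size and the upper quartile, the values were -0.37, -0.37, -0.16 and -0.17 for RPLP1, -0.35, -0.35, -0.16 and -0.17 for RPLP2, -0.31, -0.33, -0.0930 and -0.11 for RPL37, -0.29, -0.30, -0.11 and -0.12 for RPS7 and -0.36, -0.36, -0.17 and -0.18 for RPS12, and RPL26L1 was -0.0529 and -0.0552 on the FPKM scales. At 30 days RPL26L1 was -0.0251, -0.0274 and -0.0119 on the FPKM scales and under library size. At 120 days, on the FPKM scales and under library size, RPLP0 was 0.11, 0.11 and 0.0576, RPL26L1 0.0982, 0.10 and 0.0536, and RPS7 0.0787, 0.0788 and 0.0257. RPL26 was -0.00830 with DESeq2 and -0.0285 in the fit of 12 libraries. Of these, RPLP2 in HZ passed on both FPKM scales, at adjusted p values of 0.0362 and 0.0313.

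Leaving out 1 library at a time, in HZ the members called lower ranged from 4 to 12, called higher from 6 to 8, lower at the adjusted p alone from 25 to 51 and higher from 11 to 14, and the median from -0.55 to -0.32. In LC these ranges were 12 to 19, 7 to 8, 54 to 61, 9 to 11 and -0.76 to -0.60. At 30 days they were 1 to 2, 1 to 4, 1 to 2, 26 to 50 and 0.37 to 0.47, and at 120 days 0 to 0, 0 to 1, 0 to 0, 0 to 3 and 0.0766 to 0.33. Interaction calls ranged from 1 to 3 and members at the adjusted p alone from 1 to 9. In these fits the group with 2 libraries is assumed to vary like the other. The sign in these fits was checked only for the members picked by the rules given with the processing. For the annotated rows of RPL4, RPL27, RPL21, RPL31, RPS24, RPS25, RPS3A and RPS6 it was not checked. Of the members checked, the ones that changed in at least 1 fit were RPLP1 in HZ (-0.0213 to 0.28), and at 30 days RPL7L1 (-0.0975 to 0.0474), RPL26L1 (-0.13 to 0.22), RPLP2 (-0.0540 to 0.11), RPL36A (-0.0966 to 0.15) and RPSA (-0.00510 to 0.12). At 120 days they were RPLP0 (-0.0544 to 0.0474), RPLP1 (-0.0234 to 0.29), RPL26L1 (-0.0638 to 0.0538), RPS27 (-0.15 to 0.26), RPL37 (-0.0794 to 0.29), RPL26 (-0.25 to 0.42), RPS7 (-0.0758 to 0.00630) and the assembled rows of RPS29 (-0.41 to 0.0615), RPS15A (-1.59 to 0.51) and RPL10 (-0.10 to 0.22). None of these passed the test in TMM-scaled counts.

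The replicate block, which treats equal numbers as pairs, gave 5 members called lower and 7 higher in HZ, 14 and 7 in LC, 1 and 2 at 30 days, and 0 and 1 at 120 days, where at an unadjusted p under 0.05 the test without it gave 4 lower and 7 higher. Libraries of equal number were not alike, with correlations of deviations from the group mean over genes between -0.0222 and 0.0527, so the numbers do not pair samples. With 3 libraries in each group and counts under 10 in several assembled rows, differences in those rows were not measured well at this depth.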

Other observations

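The coding table held 36 further rows without a gene symbol of the family whose description names a ribosomal protein of the cytosol, and 30 of them had at most 3 counts in every library. One of the other 6, LOC100623540 on chromosome 3, described as a protein of the L39 kind, was chosen after its values were seen. Its estimated counts were 0, 1 and 0 in Ha, 44.2, 25 and 46.2 in Hb, 0, 1.01 and 0 in La and 19.1, 27.2 and 17.2 in Lb. At 30 days its libraries held at most 1.01 counts, and every 120-day library held more than 17. Another of the 6, LOC100525679 on chromosome 2, has the same description and held 8.01, 4 and 15 in Ha, 2, 2 and 2 in Hb, 6, 1 and 5 in La and 0, 2 and 4 in Lb. RPL39L had no row in the table, and whether either row holds it was not tested.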
